A study of Danio rerio with 48 samples.

Results

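A set of 30 zebrafish transcripts whose mean level in wild-type embryos was lower at 36 hours post fertilisation (hpf) than at both 24 and 48 hpf was described, first in the wild types that defined it and then in noc2l-/- embryos. A gene entered the set when its wild-type means at 24 and 48 hpf were both at least 10 CPM (counts per 1000000 counts of the library) and both at least 1.6 times its mean at 36 hpf. Lens gamma-crystallin, haemoglobin, period, nr1d and mitochondrially encoded genes were left out by name, and 30 of 31658 entries of the count table met the rule. Of these, 28 carry a gene symbol and 2 only a clone name. The members were thus chosen by the wild-type mean levels at all 3 ages. Their low wild-type level at 36 hpf is no finding, and no test is given for it.

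The samples were 48 single whole embryos of the RIKEN WT (RW) strain, all from Family 232 carrying the agu79 allele. The sources used here do not give the lesion of that allele. Wild types (noc2l+/+) numbered 6 at 24 hpf, 8 at 36 hpf and 9 at 48 hpf, and homozygous mutants (noc2l-/-) numbered 9, 9 and 7. Fish of the strain were kept in a daily light-dark cycle. The same sources give neither the lighting of the embryos, nor the clock time of collection at each age, nor whether embryos of 1 age were collected together, so age, time of day and collection cannot be told apart. Because 24 and 48 hpf lie 24 hours apart and 36 hpf lies between them, a daily rhythm and a change of development would both be sampled here at only 3 points. P-values measure the spread between embryos of 1 family.

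In zebrafish many tissues hold their own light-sensitive circadian clock. Clock and Bmal proteins switch on period, cryptochrome and nr1d genes, whose products feed back to repress them, and proteins such as Tef pass the rhythm on to other genes through a promoter element known as the D-box, which also carries responses to light. Between 24 and 48 hpf the embryo also differentiates its muscle and hatches or prepares to hatch. Early muscle regulators such as myogenin are known to decline as fibres mature.

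Library totals ran from 797752 to 11016313 counts. Under 1/3 of the median total lay 3 libraries: embryo 4 of the wild types and embryo 8 of the mutants at 24 hpf, and embryo 9 of the wild types at 48 hpf. The mean level of noc2l was 20.7, 14.7 and 13.6 CPM in wild types at the 3 ages and 5.51, 5.27 and 4.37 CPM in mutants. Markers of skeletal muscle, neurons, epidermis, hatching gland and other tissues of a whole embryo were present in every library. Over all genes, the median change between ages in wild types under this scaling was -0.12 on the log2 scale from 24 to 36 hpf and 0.10 from 36 to 48 hpf. The scaling itself thus deepened the wild-type dip, and with this shift removed 13 of the 30 members met the rule. In mutants the median change was -0.03 and 0.08.

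In wild types the 24 hpf mean was 1.78 times the 36 hpf mean at the median of the members, and the 48 hpf mean was 1.81 times it. The deepest dip belonged to pcdh8, a protocadherin that mediates cell adhesion in the paraxial mesoderm, with wild-type means of 13.01, 1.64 and 10.2 CPM at 24, 36 and 48 hpf. It was followed by myl4, a myosin light chain (16.7, 6.32 and 23.2 CPM), lonrf1l, which encodes a RING finger protein (23.7, 5.33 and 14.0 CPM), and cyp1a, a cytochrome P450 induced through the aryl hydrocarbon receptor (28.7, 10.2 and 26.2 CPM). The place of myl4 leaned on wild-type embryo 1 at 24 hpf, at 49.8 CPM where the other wild types read 8.77 to 11.8 CPM. Only pcdh8 and tefa had every wild type at 24 hpf and every wild type at 48 hpf above every wild type at 36 hpf, which 0.0694% of the 7204 genes with 24 and 48 hpf means of at least 10 CPM had. The rule chose the members on these same wild-type values and so favours such a separation, which is a description only. In 17 members the 24 hpf mean was the higher of the flanking means and in 13 the 48 hpf mean.

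The threshold fell within a continuous range of dips. Just inside it were rp2, ddr2a, tars3, cpped1 and ptgesl, whose smaller flanking mean was 1.61, 1.62, 1.64, 1.65 and 1.65 times the 36 hpf mean. Just outside were itgb6, rpz2, cbln2b, vwde and ccdc115 at 1.57, 1.56, 1.55, 1.54 and 1.54. Membership also leaned on a shallow library: without the 3 shallow libraries 18 genes met the rule, 15 of them members, and without wild-type embryo 4 at 24 hpf alone 20 did. Under TMM scaling, which removes the shift of the median gene, 13 of the 30 met it. The 8 genes that stayed members whichever single wild type was left out were myl4, lonrf1l, cyp1a, tefa, myog, efhd1, hsf2 and fsta.

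**Figure D1:**
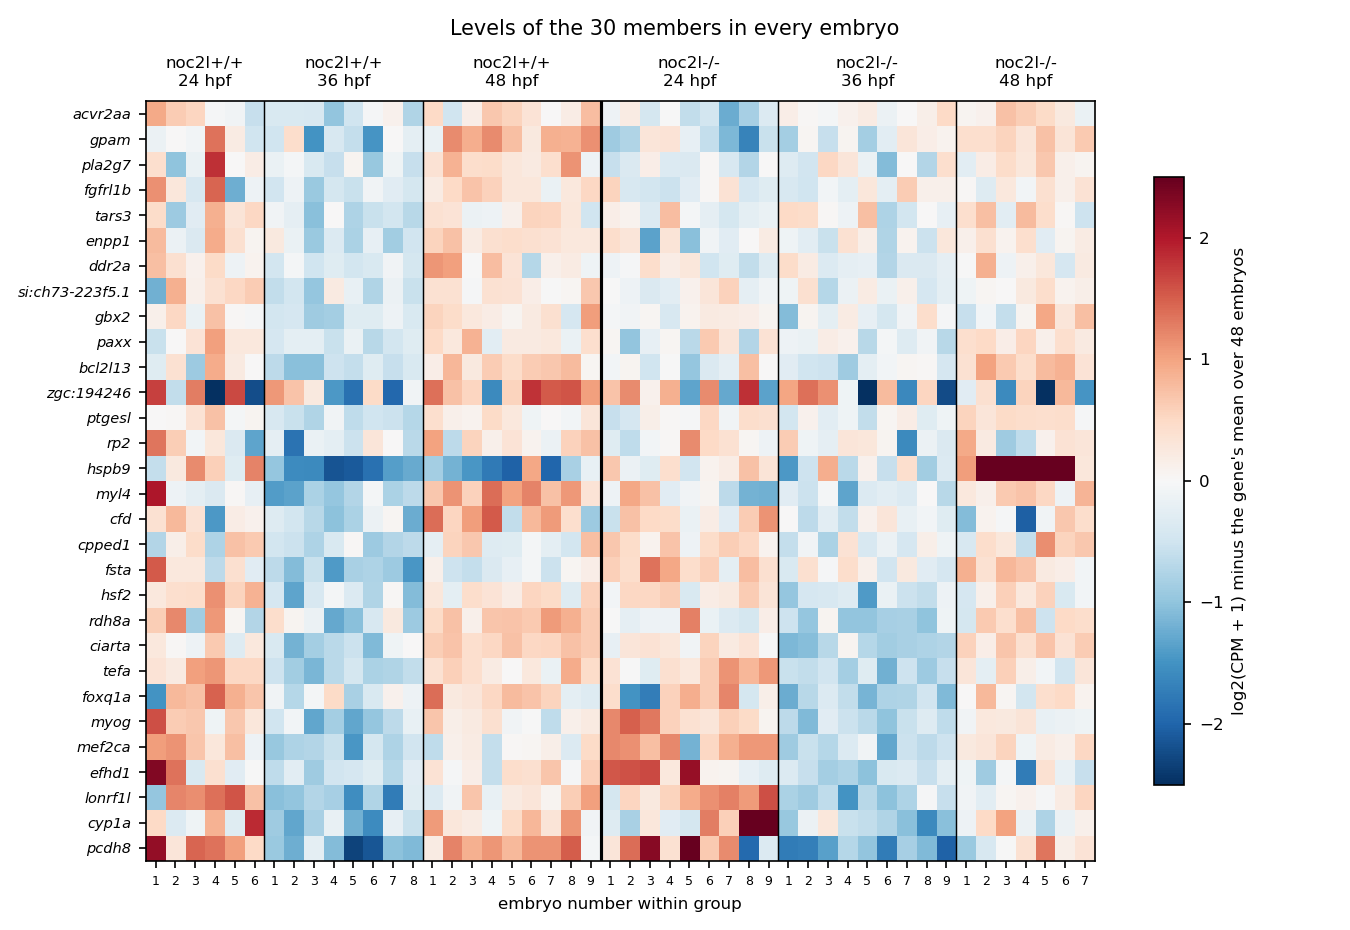
Levels of the 30 members in every embryo, as log2(CPM + 1) minus the gene's mean over 48 embryos. Columns are embryos, numbered within their group, with wild types on the left and noc2l-/- on the right; rows are ordered by the change from 24 to 36 hpf in noc2l-/- embryos, with pcdh8 at the bottom. The lower rows are low at 36 hpf in both genotypes, and hspb9 is far higher in 5 of 7 noc2l-/- embryos at 48 hpf than in any other group.

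The noc2l-/- embryos took no part in choosing the members, and changes with age were tested in them alone with edgeR's quasi-likelihood test, adjusted by Benjamini-Hochberg over all 15241 genes tested, with a call at an adjusted p under 0.05. All 30 members were tested. From 24 to 36 hpf 13 members fell, where 5.08% of all genes tested fell, and 1 rose, where 6.53% rose. From 36 to 48 hpf 13 members rose, against a background of 4.84%, and none fell, where 5.54% of all genes fell (0 members also at an unadjusted p under 0.05, and 0 with DESeq2 or limma voom; zgc:194246, at -0.67, was the only member of negative value). On both sides of 36 hpf 9 members were called, out of 21 of the 15241 genes tested, or 0.138%. Among the 7204 tested genes that had wild-type means of at least 10 CPM at 24 and 48 hpf, as all members did, 7.34% fell to 36 hpf, 4.87% rose to 48 hpf and 0.18% did both. The 2 contrasts share the 36 hpf embryos, so a low value there feeds both.

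The median member changed by -0.38 on the log2 scale from 24 to 36 hpf in noc2l-/- embryos and by 0.55 from 36 to 48 hpf, whereas the median of all genes tested was 0.00 in both contrasts. The same members in wild types, where the change chose them, had medians of -0.68 and 0.76 in a fit of all 48 libraries. In 25 members the mutant value was negative to 36 hpf, and in 29 it was positive to 48 hpf. The rule applied to noc2l-/- means in place of wild-type means was met by 17 genes, of which 7 were members: lonrf1l, cyp1a, tefa, myog, hsf2, mef2ca and ciarta.

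**Figure D2:**
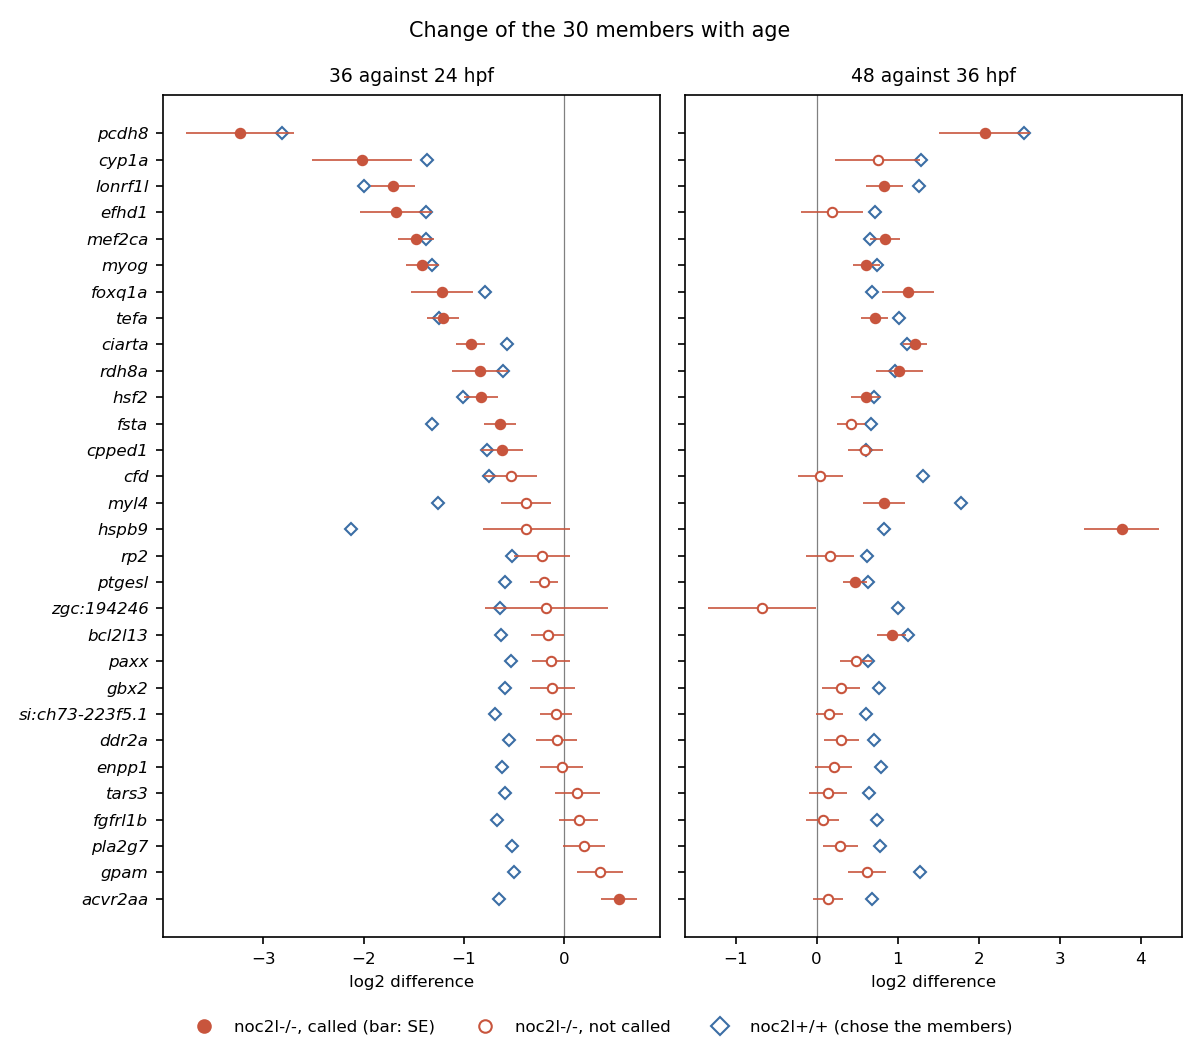
Log2 differences of the 30 members from 24 to 36 hpf (left) and from 36 to 48 hpf (right). Circles are noc2l-/- embryos with the SE as a bar, filled where the adjusted p of edgeR's test was under 0.05; diamonds are wild types, which chose the members and so lie below 0 on the left and above 0 on the right by construction. The 13 filled circles below 0 on the left run from pcdh8 at -3.23 to cpped1 at -0.62, and acvr2aa is the only filled circle above 0.

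The clock and light group held 3 members. Transcripts of tefa, a PAR-type bZIP factor of the clock's output, lay between 26.4 and 72.4 CPM with a median of 43.2 CPM in noc2l-/- embryos at 24 hpf, between 13.5 and 26.1 CPM with a median of 21.6 CPM at 36 hpf, and between 22.98 and 49.8 CPM with a median of 36.1 CPM at 48 hpf. Every mutant at 24 hpf was above every mutant at 36 hpf, while the ranges at 36 and 48 hpf overlapped. The log2 difference of tefa was -1.21 (SE 0.16) to 36 hpf and 0.72 (SE 0.17) to 48 hpf, and edgeR gave adjusted p of 5.44e-07 and 0.00265. Wild types had read 38.3 to 71.5 CPM, 14.2 to 23.7 CPM and 29.05 to 62.7 CPM at the 3 ages.

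For ciarta, the zebrafish relative of a mammalian repressor of clock transcription, mutants read 18.8 to 32.7 CPM at 24 hpf (median 27.03), 9.51 to 23.2 CPM at 36 hpf (median 12.5) and 24.9 to 36.5 CPM at 48 hpf (median 33.4). All mutants at 48 hpf were above all mutants at 36 hpf, where embryo 4 at 23.2 CPM stood apart from 8 embryos at 13.2 CPM or less. It fell by 0.93 (SE 0.14) on the log2 scale and rose by 1.22 (SE 0.15), and edgeR gave adjusted p of 7.10e-06 and 1.24e-07. For lonrf1l, listed here with light-induced genes, mutants read 7.89 to 35.5 CPM at 24 hpf (median 21.8), 3.27 to 10.8 CPM at 36 hpf (median 6.05) and 9.00 to 16.4 CPM at 48 hpf (median 11.4). The ranges overlapped only through single embryos, since 1 mutant at 24 hpf lay within the 36 hpf range and 1 mutant at 36 hpf within the 48 hpf range. Its log2 differences were -1.71 (SE 0.22) and 0.84 (SE 0.23), and edgeR gave adjusted p of 2.44e-07 and 0.0119.

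The whole clock and light lists, each with 2 members among its genes, were set beside these members. Of 30 tested genes of the core clock list 8 fell to 36 hpf and 2 rose, and 9 rose to 48 hpf and 1 fell. Both the fall to 36 hpf and the rise to 48 hpf were called in 5. The medians of the list were -0.06 and 0.44. Among 15 tested light-induced and photorepair genes, which overlap that list, 6 fell and 1 rose to 36 hpf, 5 rose to 48 hpf, and 4 did both, with medians of -0.42 and 0.47. Over all genes tested, 5.08% fell and 6.53% rose to 36 hpf. To 48 hpf 4.84% rose and 5.54% fell, and 0.138% were called as falling to 36 hpf and rising to 48 hpf. The 5 clock genes called on both sides were tefa and ciarta of the set, together with per1b, cry1a and nr1d2b. The 4 light-induced genes were lonrf1l and tefa of the set, together with cry1a and nr1d2b, which the clock list also holds.

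The period gene per1b and the Rev-erb gene nr1d2b met the wild-type levels of the rule and were left out by name. Wild-type means were 19.4, 3.56 and 10.2 CPM for per1b and 17.2, 6.11 and 18.5 CPM for nr1d2b. In mutants per1b changed by -2.36 (SE 0.25) and 1.25 (SE 0.26), and nr1d2b by -1.11 (SE 0.20) and 1.09 (SE 0.21), each called in edgeR with adjusted p of 2.83e-09 and 0.000682 for per1b and 9.43e-05 and 0.000225 for nr1d2b. The cryptochrome gene cry1a, whose wild-type mean at 48 hpf fell short of 10 CPM, had a mean of 10.7 CPM in mutants at 24 hpf, 2.59 CPM at 36 hpf and 7.63 CPM at 48 hpf. Its mutants at 36 hpf, from 1.73 to 3.20 CPM, all lay below those at 24 hpf (5.53 to 16.1 CPM) and those at 48 hpf (5.46 to 12.8 CPM). The differences were -1.995 (SE 0.23) and 1.48 (SE 0.24), and edgeR gave adjusted p of 3.54e-08 and 2.17e-05.

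Not every clock gene took this course. The light-induced period gene per2 fell to 36 hpf (-1.28, edgeR adjusted p = 0.00974), as did per3 (-0.77), cipcb, related to a mammalian inhibitor of Clock (-0.77), and cry-dash, a photolyase relative (-1.06), while their values from 36 to 48 hpf were 0.86, 0.29, 0.49 and 0.47 and none was called (edgeR adjusted p of 0.14, 0.34, 0.091 and 0.401). The bZIP repressor gene nfil3-5 rose in both steps (0.66 and 0.60), as did nr1d2a (1.83 and 1.94). The genes of the positive arm clockb, arntl1a and arntl1b were called in neither contrast, at -0.27, 0.50 and -0.14 to 36 hpf and 0.42, -0.08 and 0.37 to 48 hpf, and bhlhe40, a repressor, fell from 36 to 48 hpf (-0.44).

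**Figure D3:**
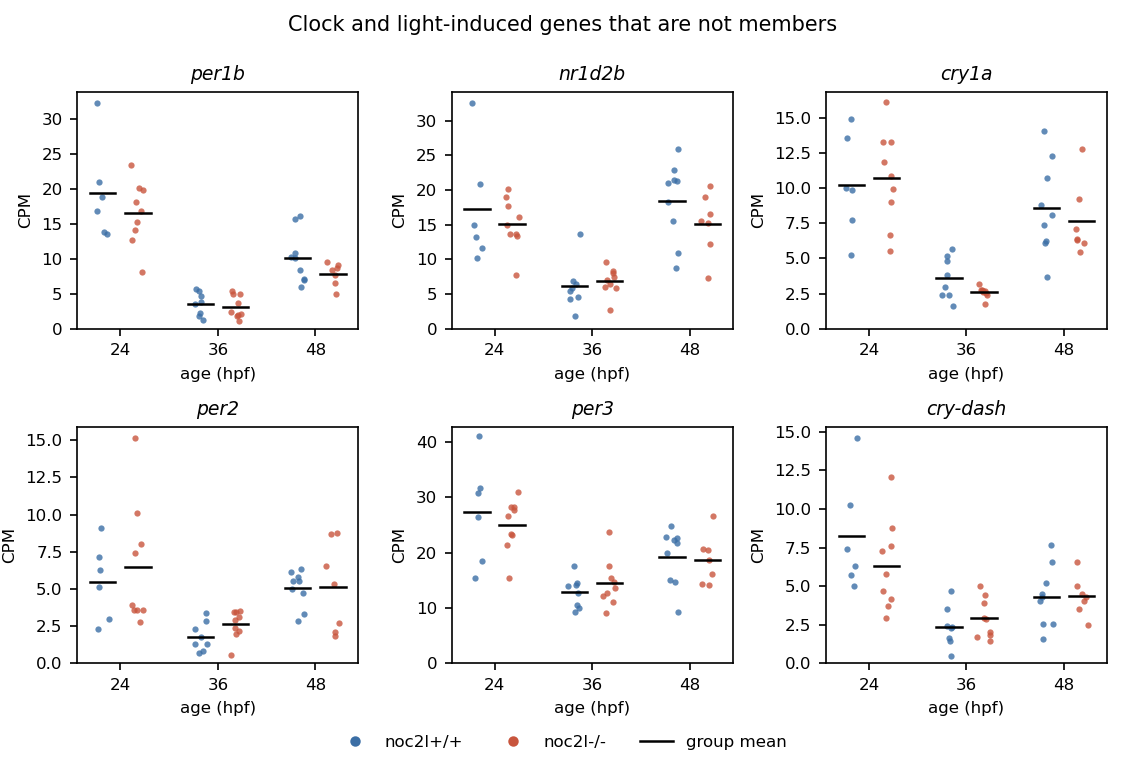
Levels in CPM of 6 clock and light-induced genes that are not members, by age, with 1 point per embryo and the group mean as a bar. In both genotypes the means at 36 hpf are the lowest of the 3 ages for per1b, nr1d2b, cry1a, per2, per3 and cry-dash.

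Among regulators of muscle, myog, the myogenic transcription factor myogenin, read 61.3 to 165.9 CPM in noc2l-/- embryos at 24 hpf (median 87.2), 26.6 to 47.8 CPM at 36 hpf (median 37.4) and 51.5 to 72.9 CPM at 48 hpf (median 54.8). No mutant at 36 hpf reached the lowest mutant at either other age. It was the only member with this separation on both sides, which 2 of the 15241 genes tested, or 0.0131%, had. Counting myog, 2 members were separated from 24 hpf (0.433% of genes tested) and 4 from 48 hpf (2.02%). Of these 4, gpam was separated by almost no margin, at 12.746 CPM against 12.749 CPM. The differences of myog were -1.41 (SE 0.16) and 0.62 (SE 0.17), and edgeR gave adjusted p of 2.22e-07 and 0.0156.

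Transcripts of mef2ca, a MADS-box factor acting with the myogenic factors, read 10.3 to 57.6 CPM in mutants at 24 hpf (median 52.9), 9.31 to 22.8 CPM at 36 hpf (median 16.3) and 22.6 to 36.5 CPM at 48 hpf (median 29.2). Embryo 5 at 24 hpf, at 10.3 CPM, lay inside the 36 hpf range and the other 8 lay above it. The gene fell by 1.48 (SE 0.18) and rose by 0.85 (SE 0.19), and edgeR gave adjusted p of 2.13e-07 and 0.00182. Most muscle genes took another course: of 34 tested skeletal muscle markers 17 rose and 2 fell to 36 hpf, and 8 rose to 48 hpf, with medians of 0.57 and 0.40. Over all genes tested, 6.53% rose and 5.08% fell to 36 hpf, and 4.84% rose to 48 hpf. The 2 markers that fell were myog and mef2d (-1.01), a relative of mef2ca, and myog was the only marker called on both sides. The early myogenic factor myod1 had values of -0.01 and 0.06 and was not called. In bulk samples such as these, fewer cells of a type and less RNA per cell cannot be told apart.

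The TGF-beta pathway was represented by a secreted antagonist and a receptor. Follistatin, encoded by fsta, which binds and blocks activins and myostatin, read 18.6 to 58.3 CPM in mutants at 24 hpf (median 33.8), 15.7 to 30.5 CPM at 36 hpf (median 21.7) and 21.01 to 41.6 CPM at 48 hpf (median 29.1). All 3 ranges overlapped. It fell by 0.64 (SE 0.16) to 36 hpf, with an edgeR adjusted p of 0.00564, and its value of 0.42 (SE 0.17) to 48 hpf was not called (adjusted p = 0.117). Every mutant at 36 hpf was above every wild type at that age, which read 7.41 to 14.7 CPM. The rule chose fsta partly by its low wild-type level at 36 hpf, so this separation is a description only. The share of all genes so separated between genotypes was not computed.

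The activin receptor gene acvr2aa was the 1 member that rose from 24 to 36 hpf in mutants. It read 4.31 to 13.4 CPM at 24 hpf (median 8.22), 10.3 to 16.7 CPM at 36 hpf (median 12.5) and 10.2 to 19.7 CPM at 48 hpf (median 13.9), so the lowest level lay at 24 hpf. The rise was 0.54 (SE 0.18) with an edgeR adjusted p of 0.0407, and the call was lost in 16 of the 25 fits that left out 1 mutant, with values from 0.45 to 0.64 over the alternatives. Wild types at 24 hpf had read 7.36 to 23.2 CPM (median 14.3).

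A contractile gene, myl4, and a gene of a mitochondrial protein, efhd1, were each called on only 1 side of 36 hpf. The myosin light chain myl4, known in mouse for its place in atrial and embryonic muscle, read 4.45 to 23.5 CPM in mutants at 24 hpf (median 10.6), 4.02 to 11.7 CPM at 36 hpf (median 8.99) and 10.5 to 21.7 CPM at 48 hpf (median 16.97). It rose to 48 hpf by 0.83 (SE 0.26) with an edgeR adjusted p of 0.0335, and its -0.38 to 36 hpf was not called (adjusted p = 0.39). The rise lost its call without any 1 of mutant embryos 2, 4, 7 and 9 at 36 hpf or 3, 4, 5 and 7 at 48 hpf, at values of 0.73 to 0.83, and in the fit of all 48 libraries (0.82, edgeR adjusted p = 0.0671). Of 12 tested heart markers 1 rose to 48 hpf, myl4, and none fell, where 4.84% of all genes tested rose and 5.54% fell. To 36 hpf 3 heart markers rose and 1 fell, where 6.53% of all genes tested rose and 5.08% fell.

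The gene efhd1, which encodes a calcium-binding protein of mitochondria, fell by 1.68 (SE 0.36) to 36 hpf (edgeR adjusted p = 0.00241) and read 0.19 to 48 hpf (adjusted p = 0.84). At 24 hpf its mutants formed separate levels, with embryos 1, 2, 3 and 5 at 48.1, 49.7, 51.7 and 75.0 CPM and the other 5 between 12.4 and 19.2 CPM. At 36 hpf it read 7.26 to 13.3 CPM and at 48 hpf 4.01 to 21.1 CPM. Those 4 embryos also had the lowest summed levels of the 33 skeletal muscle markers other than myog, 15975, 12454, 10943 and 5955 CPM against 17262 to 23389 CPM in the other 5, and of the 29 neuron markers, 325 to 477 CPM against 610 to 647 CPM. The 10 hatching gland markers were highest in the same 4 embryos, at 10431 to 14234 CPM against 8733 to 10202 CPM. The 13 heart markers other than myl4 did not follow this order, since embryo 1 had the highest sum of the group (1847 CPM) and embryo 5 the lowest (494 CPM). At 36 hpf the muscle and neuron sums were 25394 CPM or more and 659 CPM or more in every mutant. The hatching gland sums at 36 hpf, 7327 to 10399 CPM, lay below those of the 4 embryos but overlapped those of the other 5. The heart sums at 36 hpf were 834 to 1111 CPM, within the 24 hpf range.

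The same order was seen in the wild type with the lowest muscle sum at 24 hpf, embryo 1 at 11789 CPM against 17038 to 24357 CPM. Its hatching gland sum was the highest of the wild types at 24 hpf (11304 CPM), its neuron sum the lowest (478 CPM), and its heart sum of 1239 CPM lay within the range of the others. It had the highest wild-type values at that age of myog (180.0 CPM), efhd1 (82.9 CPM), fsta (66.2 CPM), myl4 (49.8 CPM) and pcdh8 (25.3 CPM). The same held for zgc:194246 (42.1 CPM), rp2 (27.1 CPM), acvr2aa (23.2 CPM) and ddr2a (18.5 CPM). Its values were the lowest of lonrf1l (5.16 CPM), foxq1a (2.15 CPM), hspb9 (17.2 CPM), hsf2 (22.8 CPM), paxx (8.16 CPM) and si:ch73-223f5.1 (6.87 CPM). With 6 embryos in the group, each would hold some extremes in any case. Embryo 4, the shallowest library, also held many, such as the highest values of tefa (71.5 CPM), hsf2 (42.6 CPM) and ciarta (35.1 CPM). It had the lowest of myog (53.9 CPM) and fsta (13.8 CPM). The part of these marker levels in the drop of the members to 36 hpf was not tested.

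**Figure D4:**
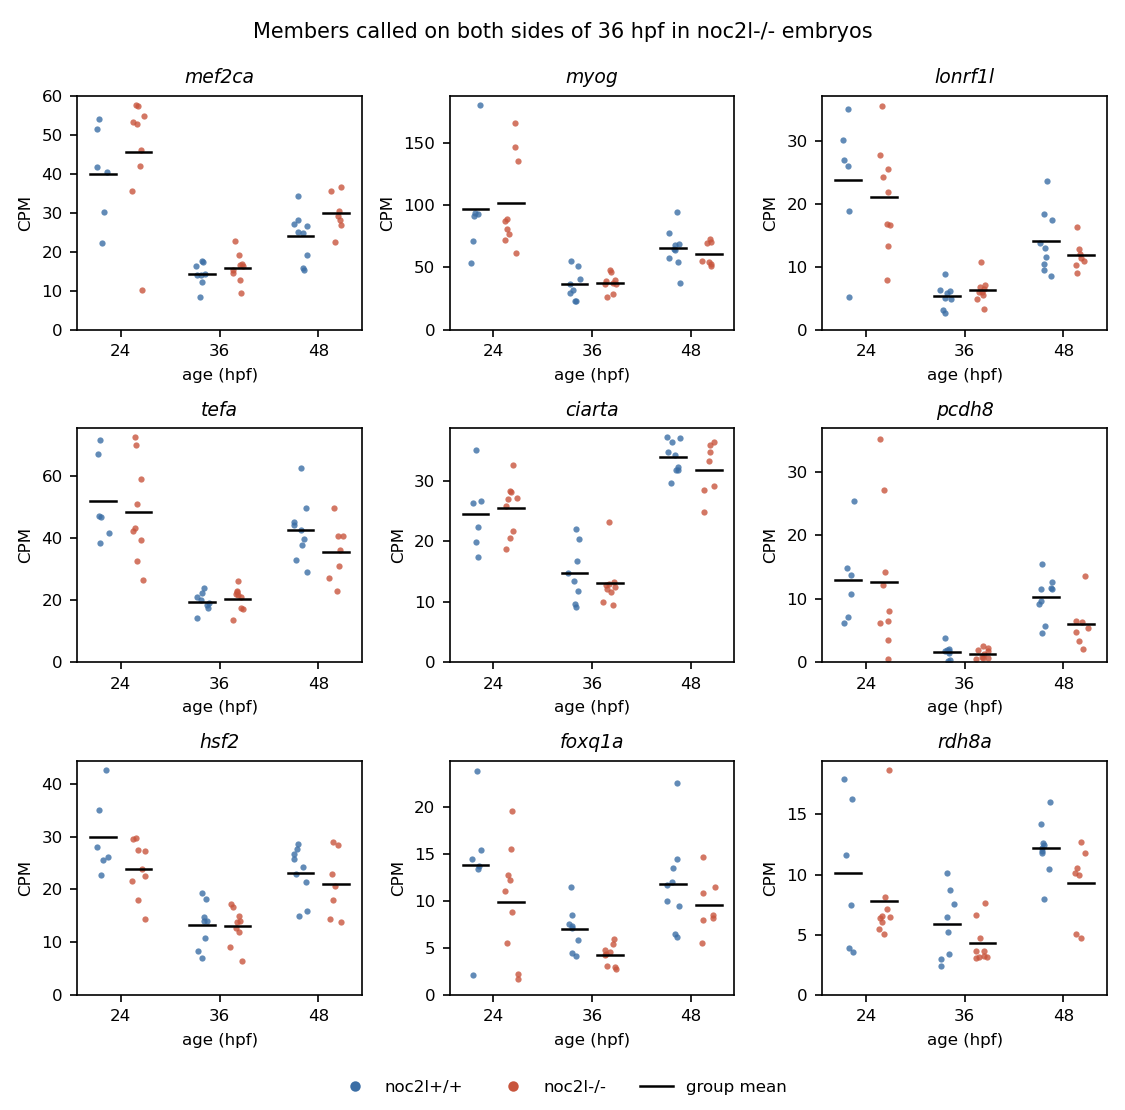
Levels in CPM of the 9 members called on both sides of 36 hpf in noc2l-/- embryos, by age, with 1 point per embryo and the group mean as a bar. The 36 hpf mean is the lowest of the 3 ages in both genotypes in each panel, and only for myog do the noc2l-/- points at 36 hpf lie clear of both other ages.

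Transcripts of pcdh8 had the largest fall to 36 hpf of any member in mutants. Mutants read 0.504 to 35.2 CPM at 24 hpf (median 8.14), 0.424 to 2.53 CPM at 36 hpf (median 1.27) and 2.02 to 13.5 CPM at 48 hpf (median 5.37). The 36 hpf libraries held only 3 to 17 counts of it, and mutant embryo 8 at 24 hpf held 1 count. The differences were -3.23 (SE 0.54) and 2.08 (SE 0.56), and edgeR gave adjusted p of 0.000166 and 0.016. Without mutant embryo 5 at 48 hpf, the highest of its group, the rise was 1.71 and missed the threshold (edgeR adjusted p = 0.0575), as it did with limma voom at 2.02 (limma adjusted p = 0.0771).

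The heat shock group held 2 members that differed in course. The transcription factor gene hsf2, known in mammals for roles in development as well as stress, read 14.3 to 29.7 CPM in mutants at 24 hpf (median 23.9), 6.40 to 17.2 CPM at 36 hpf (median 13.8) and 13.9 to 28.9 CPM at 48 hpf (median 20.6). It changed by -0.83 (SE 0.17) and 0.61 (SE 0.18), and edgeR gave adjusted p of 0.000533 and 0.0205. Its rise was 0.53 without mutant embryo 3 at 48 hpf and 0.51 without embryo 5, and then was not called (adjusted p of 0.0753 and 0.0858). Of 32 tested heat shock genes 5 fell and 2 rose to 36 hpf and 3 rose and 1 fell to 48 hpf, and hsf2 was the only one called on both sides. Over all genes tested, 5.08% fell and 6.53% rose to 36 hpf, and 4.84% rose and 5.54% fell to 48 hpf.

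The small heat shock protein gene hspb9 had the largest rise from 36 to 48 hpf of any member in mutants. It read 18.7 to 44.3 CPM at 24 hpf (median 29.9), 9.08 to 50.5 CPM at 36 hpf (median 18.2) and 55.5, 504, 682, 368, 374, 325 and 32.2 CPM in embryos 1 to 7 at 48 hpf. Embryos 2 to 6 were above every other embryo of the study, whereas embryo 7 lay within the 36 hpf range. The rise was 3.77 (SE 0.46) with an edgeR adjusted p of 5.75e-06, and the value to 36 hpf was -0.38 (SE 0.43, adjusted p = 0.665). Wild types at 48 hpf read 5.72 to 52.1 CPM with a median of 11.1 CPM, and the highest of them, embryo 6, stood above 8 embryos at 23.02 CPM or less. The wild-type median at 36 hpf was 8.17 CPM. With 1 wild type left out, hspb9 met the rule in 22 of 23 cases, and not without that embryo 6. Of the same list hspb11, another small heat shock gene, rose by 3.13 to 48 hpf in mutants, from a mean of 11.3 to 106.5 CPM.

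Detoxification and retinoid enzymes formed the next group. In mutants cyp1a read 9.79 to 148.6 CPM at 24 hpf (median 22), 5.25 to 21.9 CPM at 36 hpf (median 10.3) and 10.1 to 36.9 CPM at 48 hpf (median 16.3). Embryos 8 and 9 at 24 hpf, at 136.0 and 148.6 CPM, stood above the next value of 44.9 CPM. The fall of 2.02 (SE 0.50) was called (edgeR adjusted p = 0.00827) but was smaller with limma voom (-1.44, limma adjusted p = 0.0819), and the value to 48 hpf, 0.76 (SE 0.52), was not called (edgeR adjusted p = 0.436).

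The retinol dehydrogenase gene rdh8a was called on both sides at low levels. Mutants read 5.04 to 18.7 CPM at 24 hpf (median 6.47), 3.09 to 7.61 CPM at 36 hpf (median 3.64) and 4.70 to 12.7 CPM at 48 hpf (median 10.2). The differences were -0.84 (SE 0.28) and 1.02 (SE 0.29), and edgeR gave adjusted p of 0.0376 and 0.0138. Without mutant embryo 5 at 24 hpf the fall was -0.52 (adjusted p = 0.186), and it also missed the threshold without any 1 of embryos 2, 4, 5, 6, 7 and 8 at 36 hpf, at -0.78 to -0.82, and with limma voom at -0.75 (limma adjusted p = 0.0586). The forkhead factor gene foxq1a read 1.69 to 19.6 CPM in mutants at 24 hpf (median 11.1), 2.74 to 5.98 CPM at 36 hpf (median 4.30) and 5.46 to 14.6 CPM at 48 hpf (median 8.46). It changed by -1.22 (SE 0.31) and 1.12 (SE 0.32), and edgeR gave adjusted p of 0.00599 and 0.0171, and with limma voom the fall was -0.89 and not called (limma adjusted p = 0.115).

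Of the remaining members, 3 were called on 1 side. The gene bcl2l13, a Bcl-2 family protein of mitochondria known in mammals as a mitophagy receptor, read 8.63 to 17.4 CPM in mutants at 36 hpf and 21.6 to 34.6 CPM at 48 hpf without overlap, a rise of 0.92 (SE 0.17, edgeR adjusted p = 0.000175), and its 24 hpf range of 8.09 to 28.7 CPM overlapped both. The gene ptgesl, named for its likeness to a prostaglandin E synthase, rose by 0.47 (SE 0.15, edgeR adjusted p = 0.0308), a call lost without any 1 of embryos 1, 3, 5 and 8 at 36 hpf or 1, 3, 4, 5 and 6 at 48 hpf, at 0.42 to 0.47. The phosphatase gene cpped1 fell by 0.62 (SE 0.21, edgeR adjusted p = 0.0429), a call lost in 13 of the 25 fits without 1 mutant.

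**Figure D5:**
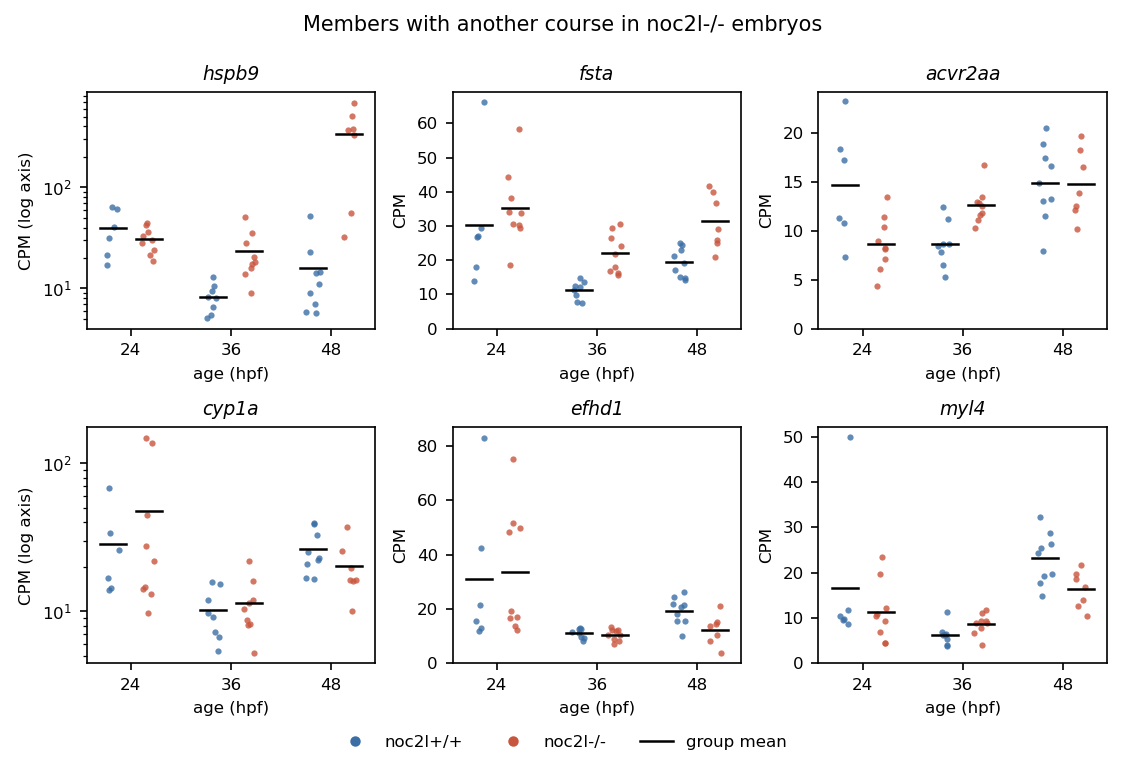
Levels in CPM of 6 members whose course in noc2l-/- embryos differed from a dip called on both sides, by age, with 1 point per embryo and the group mean as a bar; the axes of hspb9 and cyp1a are logarithmic. Embryos of noc2l-/- at 48 hpf reach 682 CPM for hspb9, acvr2aa is lowest at 24 hpf in noc2l-/-, and the 24 hpf groups of cyp1a, efhd1 and myl4 each hold embryos far above the rest.

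The other 12 members were called in neither contrast in mutants. They had values from -0.53 to 0.35 to 36 hpf and from -0.67 to 0.62 to 48 hpf. Among them were gpam, an acyltransferase of glycerolipid synthesis, which read 0.35 to 36 hpf and 0.62 to 48 hpf (edgeR adjusted p of 0.386 and 0.0837), and cfd, complement factor D, at -0.53 and 0.05 (adjusted p of 0.215 and 0.953). For gpam every mutant at 48 hpf, from 12.749 to 17.5 CPM, lay above every mutant at 36 hpf, where the highest read 12.746 CPM. These ranges all but touched. Also uncalled were pla2g7, a phospholipase that inactivates platelet-activating factor (0.20 and 0.29), fgfrl1b, a fibroblast growth factor receptor-like gene (0.14 and 0.08), tars3, a threonyl-tRNA synthetase (0.13 and 0.15), enpp1, an ectonucleotide pyrophosphatase (-0.03 and 0.21), ddr2a, a collagen receptor kinase (-0.08 and 0.30), gbx2, a homeobox gene of the midbrain-hindbrain boundary (-0.12 and 0.30), paxx, a factor of DNA end joining (-0.14 and 0.49) and rp2, a regulator of the small GTPase Arl3 (-0.22 and 0.16). The clone-named si:ch73-223f5.1 read -0.08 and 0.15 and zgc:194246 -0.18 and -0.67.

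Several of these 12 owed their wild-type mean at 24 hpf in part to the shallowest library, wild-type embryo 4. It read 40.1 CPM for pla2g7 where the other 5 wild types read 4.77 to 14.6 CPM, and 27.6 CPM for gpam where they read 6.90 to 11.8 CPM. For fgfrl1b it gave the highest wild-type value too, 30.1 CPM. In mutants the 15 members that met the rule without the 3 shallow libraries had 9 falls, 8 rises and 6 calls on both sides, with medians of -0.83 and 0.62. The 15 that did not had 4, 5 and 3, with medians of -0.12 and 0.47. Among these 15 were ciarta, mef2ca and rdh8a, each called on both sides, and bcl2l13, ptgesl and cpped1, each called on 1 side. Over all genes tested in mutants, 5.08% fell to 36 hpf, 4.84% rose to 48 hpf and 0.138% did both.

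Levels of noc2l-/- and wild-type embryos of the same age are given as a description only, because the wild-type means chose the members. Mutant means were above wild-type means at 36 hpf in 24 of 30 members, below them at 24 hpf in 22 and below them at 48 hpf in 22, an order that choosing genes by low wild-type values at 36 hpf and high values beside it itself favours. The median differences between genotypes were -0.14, 0.27 and -0.22 on the log2 scale at 24, 36 and 48 hpf, against medians over all genes of 0.02, -0.01 and -0.02. The members furthest from wild type were hspb9, at 1.43 (SE 0.46) at 36 hpf and 4.36 (SE 0.46) at 48 hpf, fsta at 0.93 (SE 0.20) and 0.68 (SE 0.20), and zgc:194246 at -1.36 (SE 0.65) at 48 hpf. The 3 clock and light members differed from wild type by -0.28 to 0.19 over all ages, and myog by -0.13 to 0.12. Other members lay about as near, such as hsf2 (-0.24 to -0.07) and paxx (-0.21 to 0.18).

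A mirrored rule, asking for wild-type means at 36 hpf of at least 10 CPM and at least 1.6 times both flanking means, was met by 11 genes. In mutants 8 of these rose to 36 hpf, where 6.53% of all genes tested rose, and 2 fell to 48 hpf, where 5.54% fell. Their medians were 1.36 and -0.40. No member lies on the chromosome of noc2l, going by the RefSeq table of the assembly GRCz12tu, in which all 30 were found.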

How the data were processed

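Each embryo gave 1 Lasy-Seq library of mRNA 3' ends, indexed at reverse transcription and pooled before sequencing, per the labels' protocols. Salmon, BWA 0.7.17-r1188, fastp 0.21.0 and the build GRCz11 stand in the submitters' processing notes; the sources used here give neither their order nor the annotation or handling of strand. In the deposited table the authors give expected counts per gene, not normalised; such counting can divide reads among near-identical genes, and overlapping genes cannot be told apart. Values were rounded to whole numbers (2 were not whole) and scaled to CPM by library totals. Sample descriptions deposited beside it were not used.

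Changes with age were fitted on the 25 noc2l-/- libraries with edgeR 4.0.16 in R 4.3.3 (filterByExpr with a minimum count of 10, TMM factors, robust quasi-likelihood F-test, two-sided, Benjamini-Hochberg over the 15241 genes kept, threshold 0.05); SE derive from the F statistic, and the common biological coefficient of variation was 29.7%. Differences between genotypes came from the same model on all 48 libraries, with no p given. The scripts were tested on simulated data. No libraries of 1 group had counts equal within sampling noise (chi-square of at least 5.46 per degree of freedom). Alternatives used DESeq2 1.42.0, limma 3.58.1 (voom), other scalings, filters and membership rules, a replicate block, and fits leaving out 1 embryo.

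Members and gene lists were chosen with earlier results of these data known. Genes named are members by depth of dip, smallest p, smallest change, list membership, nearness to the threshold or level, and list genes that fell short of the rule or were left out by name; the other 12 of the 21 genes called on both sides were named after their values were seen.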

Additional observations from a re-analysis of the deposited data

Results flagged for a closer look

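Over 180 combinations of a member and a group, 20 (11.11%) held an embryo set apart from its group by more than Dixon's 95% limit. Of these, 10 were in wild types and 10 in mutants. The limit flags about 1 in 20 groups of normally distributed values, and it was applied here to unlogged CPM. The rule also favours genes with a high wild-type embryo at 24 or 48 hpf. The share is therefore not read as an excess. All but 1 of the 20 flags were high values, and no cause was tested. In wild types at 24 hpf, embryo 1 was high for fsta (66.2 CPM), myl4 (49.8 CPM) and myog (180.0 CPM), the shallowest library, embryo 4, for pla2g7 (40.1 CPM) and gpam (27.6 CPM), and embryo 6 for cyp1a (67.6 CPM). At 36 hpf wild-type embryo 6 was high for myl4 (11.2 CPM) and embryo 5 for cpped1 (9.49 CPM). At 48 hpf wild-type embryo 6 was high for hspb9 (52.1 CPM) and embryo 1 for foxq1a (22.5 CPM).

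In mutants at 24 hpf embryo 5 was high for rdh8a (18.7 CPM) and rp2 (24.3 CPM) and low for mef2ca (10.3 CPM), embryo 4 was high for tars3 (16.2 CPM), and the shallow embryo 8 for bcl2l13 (28.7 CPM). At 36 hpf embryo 9 was high for acvr2aa (16.7 CPM), embryo 8 for lonrf1l (10.8 CPM) and embryo 4 for ciarta (23.2 CPM). At 48 hpf embryo 2 was high for ddr2a (20.5 CPM) and embryo 5 for pcdh8 (13.5 CPM).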

How the results depend on the processing

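The number of genes meeting the rule was 30 and moved to 13 with TMM-scaled CPM, 5 at a ratio of 2, 82 at a minimum of 5 CPM, 9 at a minimum of 20 CPM, 18 without the shallow libraries and 20 to 35 when 1 wild type was left out. The counts in mutants (13 falls, 13 rises, 9 both) moved by over 1.5 times only where the members themselves changed: to 7, 8 and 5 of the 13 members by TMM-scaled CPM, to 4, 4 and 3 of the 5 at a ratio of 2, and to 8 rises of the 18 without the shallow libraries, the last chosen after seeing the data. Fewer genes are counted in each. With the 30 members kept, limma voom gave 10, 13 and 6 and DESeq2 13, 13 and 9. Leaving out 1 mutant gave 11 to 13, 9 to 13 and 7 to 10. The lowest rises and both-side counts came without mutant embryo 5 at 48 hpf. Over all genes, falls and rises numbered 775 and 738 in the main fit. They numbered 792 and 1009 with limma voom and 949 and 911 with DESeq2, so the background moved too.

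Replicate numbers did not pair the mutants across ages (23 pairs, correlations from -0.05 to 0.08, 0 over 0.1), and a replicate block gave 11, 11 and 7. Falls and rises over all genes numbered 716 and 748 with the block. With the block the calls of rdh8a and cyp1a to 36 hpf and of myl4 and foxq1a to 48 hpf were lost.

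Of 27 called values of single members 17 held in all 32 alternatives and 10 were lost in at least 1; of 33 uncalled values 2 gained a call in some, cpped1 and gpam to 48 hpf. None reversed. Low counts limit pcdh8.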

Other observations

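Beside the 9 members, 12 other genes were called as falling to 36 hpf and rising to 48 hpf in noc2l-/- embryos, and they were named after their values were seen. Besides per1b, cry1a and nr1d2b they held foxd3, a forkhead factor of the neural crest (-1.08 and 0.61 on the log2 scale), twist2, a bHLH factor of mesenchyme (-0.64 and 0.99), jam2a, a junctional adhesion molecule needed for myocyte fusion in zebrafish (-2.42 and 0.96), and loxl1, a lysyl oxidase relative that cross-links elastin in mammals (-0.64 and 0.97). Also present were jdp2b, a bZIP repressor gene (-0.96 and 0.86), csrnp1a, a nuclear factor of the cysteine and serine rich family (-0.71 and 0.75), the chemokine gene ccl39.7 (-1.33 and 1.42) and BX537143.1 (-2.95 and 1.56). The bone-associated gene ifitm5 rose most from 36 to 48 hpf, with means of 1.16, 0.297 and 8.74 CPM at 24, 36 and 48 hpf and differences of -1.86 (SE 0.58) and 4.72 (SE 0.55), and edgeR gave adjusted p of 0.0264 and 4.03e-08.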
